A study of Homo sapiens with 12 samples.

Results

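The transcripts described here are the host genes of small nucleolar RNAs (snoRNAs) named SNHG with a number, together with GAS5, and the host genes of microRNAs named MIR with HG at the end. They were taken by symbol alone: 47 of the 25433 genes in the count tables carry such a symbol, 22 of them snoRNA hosts and 25 microRNA hosts. In each comparison 46 passed the filter on low counts, all 22 snoRNA hosts and 24 microRNA hosts. The remaining one, MIR155HG, stood between 0.0255 and 0.163 CPM (the count scaled to the TMM-adjusted library total) in the control and TGF-β1 libraries and was not tested. By its symbol MIRLET7DHG counts as a microRNA host, although GENCODE 29 names it LINC02603 and places no microRNA on its strand inside it.

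The RNA came from A549, a line grown from a human lung adenocarcinoma, used at passages 5 to 10. All cells were kept in the same serum-containing medium. The control group had neither agent, the TGF-β1 group received 10 ng/mL TGF-β1, and the acetate group received the same TGF-β1 together with 40 mM sodium acetate, each for 2 days. Each group had 4 libraries of total RNA depleted of ribosomal RNA. Which column holds which group is not stated in any label: S1 to S4 were read as control, S15 to S18 as TGF-β1 and S22 to S25 as acetate, and every comparison rests on that reading. The labels do not tell whether replicate libraries are separate cultures; p-values then measure only library-to-library spread, possibly technical. In bulk RNA, fewer cells with a transcript and less of it per cell cannot be told apart.

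Library totals ran from 34698057 to 53936023 counts, at which 3 counts equal 0.0564 to 0.0856 CPM. Over all 5 epithelial markers (EPCAM and 4 keratins) the summed level was 5976 to 6224 CPM in control, 5580 to 6164 with TGF-β1 and 6629 to 7620 with acetate, a sum carried by KRT7, KRT8 and KRT18. EPCAM averaged 4.22, 1.08 and 5.63 CPM and KRT19 36.6, 7.01 and 58.4 CPM in the control, TGF-β1 and acetate groups. In the same order KRT7 averaged 1809, 2268 and 2683 CPM, KRT8 2250, 2237 and 2525 CPM, and KRT18 1955, 1456 and 1840 CPM. The 4 of 5 fibroblast markers held by both tables summed to 0.771 to 1.14, 7.05 to 8.60 and 18.1 to 20.9 CPM in the same order, and the single endothelial marker held by both tables reached at most 0.39 CPM. The 2 of 6 leukocyte markers held by both tables summed to 11.9 to 14.6, 13.3 to 16.6 and 23.9 to 25.3 CPM. Of these CD14 averaged 2.27, 0.259 and 2.10 CPM and CD68 11.03, 15 and 22.5 CPM. Rows annotated as snoRNAs or related small RNAs took 0.437 to 0.479% of control counts, 0.514 to 0.650% of TGF-β1 counts (highest in S17) and 0.300 to 0.430% of acetate counts (lowest in S25). The part of these shifts in the results below was not tested, except where values without S17 or S25 are given.

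snoRNAs are short RNAs that guide the methylation and pseudouridylation of ribosomal RNA, and scaRNAs do the same for spliceosomal RNAs in Cajal bodies. Most human ones are cut from the introns of a host transcript. For SNHG genes the spliced remainder is a long noncoding RNA that is often short-lived, because ribosomes that engage it trigger nonsense-mediated decay. Many snoRNA hosts, like the genes of ribosomal proteins, begin with a C and a run of pyrimidines, the terminal oligopyrimidine tract. microRNA hosts are the primary transcripts from which the Drosha complex cuts microRNA hairpins; the mature microRNA then pairs with target mRNAs through its seed, bases 2 to 8. A host's read count covers the long transcript and, for some hosts, also reads of small RNAs inside its exons, and mature microRNAs were not measured.

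Some microRNAs of hosts described below are given as in RefSeq (GRCh38.p14), 5′ to 3′, with the seed in capitals, to show which of these hosts carry the same seed. MIR17HG carries 6, of which 2 pairs share a seed.
hsa-miR-17-5p: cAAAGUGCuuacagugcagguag
hsa-miR-20a-5p: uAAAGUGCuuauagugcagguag
hsa-miR-18a-5p: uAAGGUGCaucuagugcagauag
hsa-miR-19a-3p: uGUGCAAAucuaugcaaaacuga
hsa-miR-19b-3p: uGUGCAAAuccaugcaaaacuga
hsa-miR-92a-3p: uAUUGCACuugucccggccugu
The seed AGCAGCA is common to both microRNAs of MIR497HG and to miR-424 of MIR503HG.
hsa-miR-195-5p: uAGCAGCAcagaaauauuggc
hsa-miR-497-5p: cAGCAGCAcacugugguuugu
hsa-miR-424-5p: cAGCAGCAauucauguuuugaa
MIR100HG and MIR99AHG, on chromosomes 11 and 21, each hold a member of the miR-99/100 group, a let-7 and a copy of miR-125b, so their products share all 3 seeds.
hsa-miR-100-5p: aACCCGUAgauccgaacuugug
hsa-miR-99a-5p: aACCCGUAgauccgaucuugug
hsa-let-7a-5p: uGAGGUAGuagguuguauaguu
hsa-let-7c-5p: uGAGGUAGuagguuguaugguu
hsa-miR-125b-5p: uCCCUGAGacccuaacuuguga
The products of MIR31HG, MIR22HG and MIR193BHG have seeds of their own in this set.
hsa-miR-31-5p: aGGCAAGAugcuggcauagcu
hsa-miR-22-3p: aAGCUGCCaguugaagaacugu
hsa-miR-193b-3p: aACUGGCCcucaaagucccgcu

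Per kilobase of exon, the snoRNA hosts held most of the top places in control libraries. SNHG3 stood highest at 140 ± 15.5 CPM per kb (SD, n = 4), followed by GAS5 at 81.7 ± 5.83, SNHG1 at 76.5 ± 4.35 and SNHG8 at 74.6 ± 5.62, and in that order neither GAS5 and SNHG1 nor SNHG1 and SNHG8 differed beyond their spread. The highest microRNA host was MIR31HG at 22.8 ± 1.93 CPM per kb, next to SNHG7 at 23.1 ± 1.06. With TGF-β1 MIR31HG stood at 44.2 ± 2.64 CPM per kb, next to GAS5 at 41.6 ± 1.62, with SD ranges that overlap. The place of SNHG3 depends on a snoRNA in its exon: without the counts of SNORA73A it stood at 15.3 ± 1.13 CPM per kb in control. With such counts taken off their rows as well, SNHG8 stood at 69.0 ± 5.48 and SNHG1 at 66.7 ± 3.55 CPM per kb. GAS5 cannot be ranked against these values, because no snoRNA row is annotated inside it and nothing could be taken off its count.

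**Figure D1:**
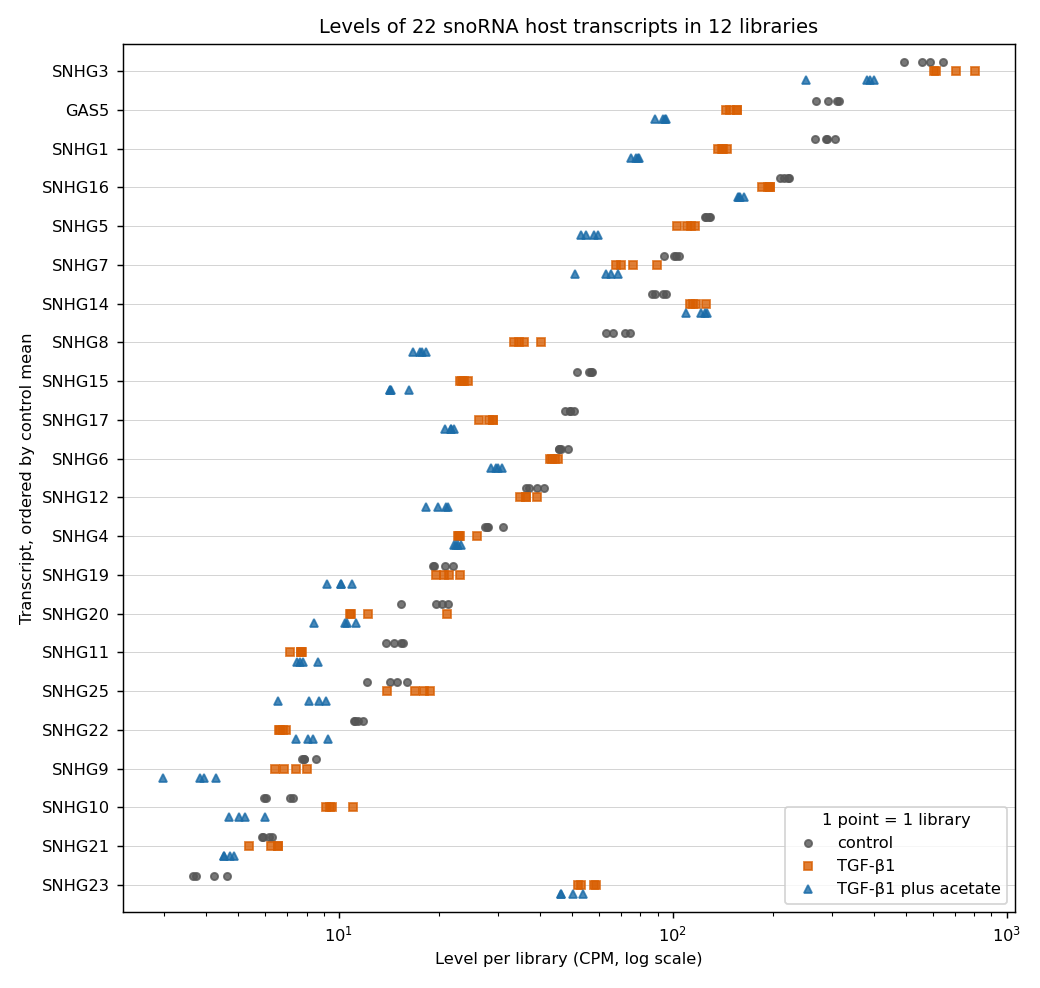
Levels of the 22 snoRNA hosts in the 12 libraries, in CPM on a log axis, ordered by control mean, with 1 point per library in each of the 3 groups. GAS5, SNHG1, SNHG8 and SNHG15 step down from control to TGF-β1 to acetate without overlap, while SNHG23 stands at 3.65 to 4.63 CPM in control and above 46 CPM in the other groups.

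The first comparison asked what TGF-β1 did on its own. Among snoRNA hosts, 12 of 22 fell and 5 rose, and among microRNA hosts 17 of 24 rose and 1 fell (edgeR's quasi-likelihood test, Benjamini-Hochberg adjusted p below 0.05). Over all 22051 genes tested, 66.9% were called, 34.1% higher and 32.8% lower. The median log2 fold change was -0.18 in snoRNA hosts, 0.48 in microRNA hosts and 0.02 over all genes. Libraries of both groups did not overlap for 15 of 22 snoRNA hosts and 15 of 24 microRNA hosts, against 61.4% of all genes, so the number of changed members was near the background and their direction differed by class. Scaling to library totals shifted the median of all genes to -0.09 and the split of calls from 7518 higher and 7224 lower to 6078 and 8676, with class medians of -0.28 and 0.38.

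GAS5 (chr1:173863900-173868882, minus strand, hg38) is a multi-snoRNA host whose spliced RNA accumulates in growth-arrested cells. It stood at 269, 310, 315 and 292 CPM in the control libraries and at 144, 156, 156 and 148 CPM with TGF-β1, with no overlap. The fall was -0.97 ± 0.05 on the log2 scale (SE), with an adjusted p of 1.94e-11. SNHG1 (chr11:62851988-62855914), host of SNORD22, SNORD25 to SNORD28 and SNORD30 among others, fell from 287, 266, 306 and 289 CPM to 140, 141, 145 and 137 CPM. Its log2 fold change was -1.02 ± 0.04 (adjusted p 1.36e-12).

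SNHG15 (chr7:44983023-44986961), host of SNORA9, had the steepest fall of the class. Its control libraries held 51.7, 56.9, 56.0 and 57.5 CPM and its TGF-β1 libraries 23.1, 24.4, 23.7 and 23.3 CPM, a log2 fold change of -1.23 ± 0.04 (adjusted p 1.92e-13). SNHG8 (chr4:118278709-118279823), host of SNORA24, fell from 63.0 to 74.3 CPM across control libraries to 33.3 to 40.3 CPM (log2 -0.92). SNHG11 fell from 13.8, 14.6, 15.4 and 15.6 CPM to 7.16, 7.70, 7.68 and 7.74 CPM (log2 -0.97). SNHG17 fell from 49.1 ± 1.24 to 28.1 ± 1.20 CPM (-0.80), and SNHG22 from 11.4 ± 0.33 to 6.76 ± 0.15 CPM (-0.74). In all of these the groups were apart.

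The other hosts that fell did so by less: SNHG20 (-0.45), SNHG7 (-0.40), SNHG4 (-0.26), SNHG5 (-0.19) and SNHG16 (-0.17). Of these only SNHG20 had overlapping groups, with 10.8, 12.2, 21.1 and 10.8 CPM after TGF-β1. Its call was lost without S15, S16 or S18 (adjusted p 0.0719 to 0.0973) and by DESeq2 (0.0926). Without S17, the library at 21.1 CPM, it came to -0.76 (adjusted p 4.43e-06), and with exonic small RNA counts subtracted to -0.98 (adjusted p 3.50e-07). SNHG12, a host of both box H/ACA and box C/D snoRNAs, did not pass the test, with 36.3, 37.1, 41.2 and 39.2 CPM in control and 34.9, 39.3, 36.4 and 36.3 CPM with TGF-β1. The rest that did not pass were SNHG6, SNHG9, SNHG19 and SNHG21, with log2 fold changes from -0.15 to 0.06. With library totals SNHG6, SNHG9 and SNHG12 were also called lower, and SNHG6 or SNHG9 without some single libraries (SNHG6 without S1, S2 or S4, SNHG9 without S2 or S18).

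Of the 5 snoRNA hosts that rose, SNHG23 changed by far the most, from 4.24, 3.65, 3.73 and 4.63 CPM to 58.9, 53.0, 58.2 and 52.1 CPM (log2 3.77 ± 0.07, adjusted p 6.60e-17). SNHG10 rose from 7.13, 5.98, 7.31 and 6.06 CPM to 9.44, 9.16, 9.55 and 11 CPM (log2 0.58). SNHG14, the long imprinted transcript of the Prader-Willi region that carries the SNORD116 array, rose from 93.3, 95.3, 86.6 and 88.5 CPM to 126, 117, 115 and 113 CPM (log2 0.38). For SNHG3 (0.26, adjusted p 0.0110) and SNHG25 (0.25, adjusted p 0.0234) the libraries of both groups overlapped. The SNHG3 call was lost without S1 (adjusted p 0.0673), by DESeq2 (0.0671), with all 12 libraries in the fit (0.0630) and with library totals (0.0857). The SNHG25 call was lost without S1, S2, S16 or S17 and with library totals (0.149).

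Among microRNA hosts, MIR22HG (chr17:1711493-1717174), whose hairpin gives miR-22, rose from 30.8, 28.5, 34.3 and 29.3 CPM to 61.4, 68.1, 65.1 and 63.9 CPM (log2 1.08 ± 0.05, adjusted p 1.44e-11). MIR31HG (chr9:21455642-21559669) rose from 15.4, 17.8, 16.3 and 18.5 CPM to 35.8, 32.5, 32.1 and 31.3 CPM (log2 0.96 ± 0.06, adjusted p 5.02e-10). MIR193BHG (chr16:14301389-14326744), host of miR-193b and miR-365a, rose from 3.38, 3.51, 3.55 and 3.22 CPM to 11.7, 11.3, 11.8 and 10.4 CPM (log2 1.73). None of these groups overlapped.

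MIR17HG (chr13:91347820-91354579), the host of the miR-17 to miR-92a cluster and a known MYC target, held 13.0, 11.1, 15.1 and 12.8 CPM in control and 18.5, 17.9, 18.3 and 17.5 CPM with TGF-β1. It rose by 0.48 ± 0.07 on the log2 scale (adjusted p 1.62e-05). MIR497HG (chr17:7015818-7019659) rose from 26.4 ± 1.31 to 40.6 ± 2.65 CPM (0.63), MIR137HG from 4.04 ± 0.11 to 8.94 ± 1.04 CPM (1.15) and MIR181A2HG from 0.798, 1.14, 0.843 and 1.11 CPM to 2.82, 2.23, 2.58 and 2.51 CPM (1.38). These hosts gained between 1.4-fold and 2.6-fold.

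MIR2117HG, on chromosome 17, was at the floor in control, with 0 counts in S1 and S2 and 2 counts in all 4 libraries. With TGF-β1 it had 282 counts, a depth-adjusted ratio of 160 with a 95% counting interval of 43.9 to 1328. MIR381HG rose from 0.0409, 0.102, 0.102 and 0.0564 CPM to 0.907, 1.37, 0.868 and 0.974 CPM (log2 3.74). Its 14 control counts against 169 give a ratio of 13.7 with a 95% counting interval of 7.94 to 25.6. These intervals cover counting alone and leave out the spread between libraries. MIR2117HG and MIR381HG passed the filter on low counts only through their TGF-β1 libraries, so only a rise could be called. Both are among the hosts counted above as rising and as having groups apart. MIR600HG (0.78), MIR210HG (0.64), MIR762HG (0.48), MIR222HG (0.35) and MIRLET7BHG (0.25) also rose with groups apart. MIR181A1HG, MIR663AHG and MIRLET7DHG passed the test with overlapping groups and adjusted p of 0.0370, 0.0415 and 0.0246. The MIR181A1HG call was lost without S1, S3, S4 or S15, the MIR663AHG call without S3, S4, S16 or S18, and the MIRLET7DHG call without S1, S2, S4 or S17. With library totals all 3 calls were lost, with all 12 libraries in the fit those of MIR663AHG (adjusted p 0.280) and MIRLET7DHG (0.0511), and with a filter at 1 CPM that of MIR663AHG (0.0534).

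Against this direction, MIR99AHG (chr21:15928296-16627397) was the 1 microRNA host that fell: 3.66, 4.31, 3.98 and 3.95 CPM in control and 0.882, 0.542, 0.691 and 0.706 CPM with TGF-β1 (log2 -2.48 ± 0.14, adjusted p 1.02e-10). MIR100HG (chr11:122028327-122556721), which carries the same 3 seeds, held 21.8, 24.6, 22 and 23.2 CPM in control and 22.4, 20.1, 22 and 20.4 CPM with TGF-β1 and did not pass (log2 -0.10, adjusted p 0.0944). It did pass under library totals (-0.21) and without S1, S3 or S15.

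**Figure D2:**
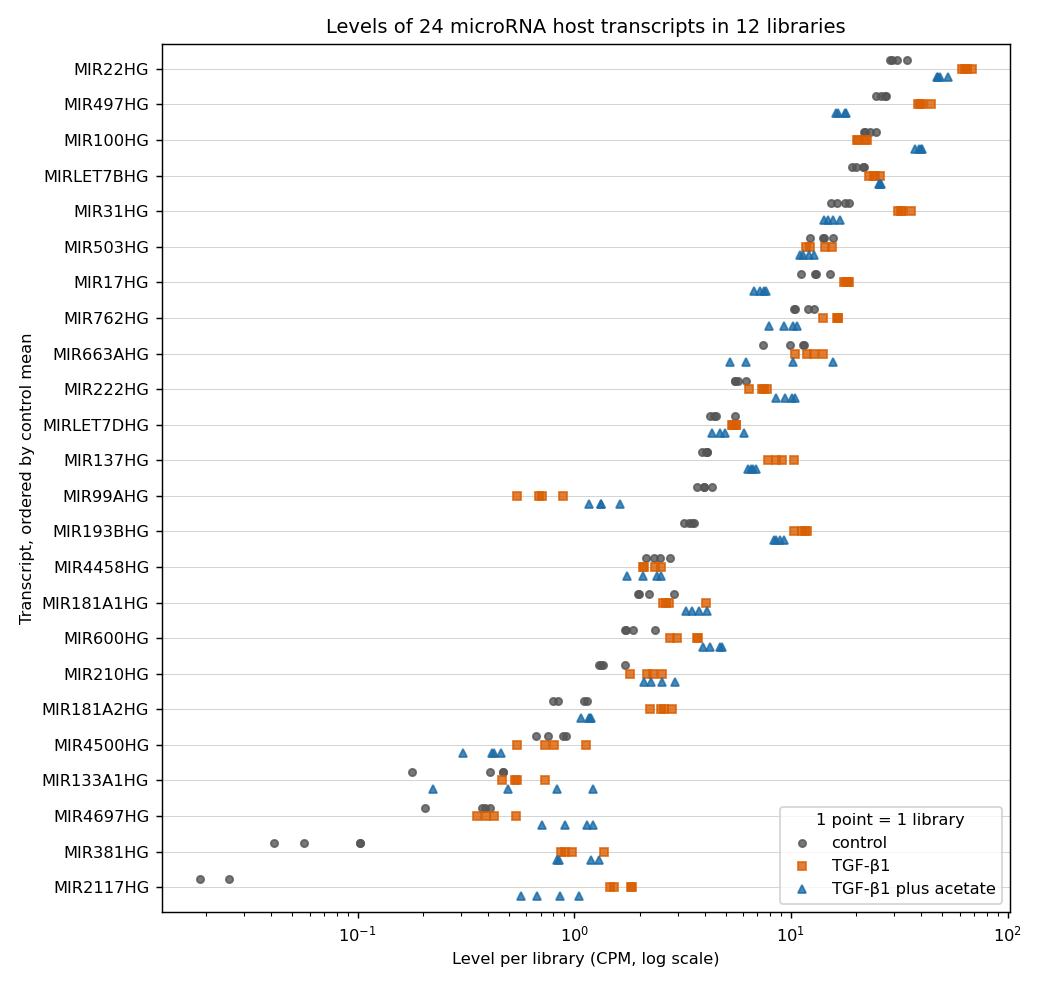
Levels of the 24 tested microRNA hosts in the 12 libraries, in CPM on a log axis, ordered by control mean, with 1 point per library; the 2 control libraries with 0 counts of MIR2117HG are not drawn. MIR99AHG lies to the left with TGF-β1 while MIR22HG, MIR31HG, MIR193BHG and MIR137HG lie to the right, and MIR17HG and MIR497HG fall below control with acetate.

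The second comparison asked what adding acetate to TGF-β1 changed. Of 22 snoRNA hosts, 18 were lower with acetate and 1 higher. Of 24 microRNA hosts, 10 were lower and 5 higher. Over all 22336 genes tested 63.7% were called, 30.4% lower and 33.3% higher. Median log2 fold changes were -0.62 in snoRNA hosts, -0.15 in microRNA hosts and 0.03 over all genes. The groups were apart in 16 of 22 and 15 of 24 members, against 57.3% of all genes. With library totals the all-gene median moved to 0.16, the split from 7437 higher and 6792 lower to 9592 and 4699, and the class medians to -0.48 and -0.01. This comparison uses the same TGF-β1 libraries as the first, so both sets of values are given side by side and no agreement between them is drawn.

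GAS5 stood at 88.5, 94.6, 95.3 and 93.3 CPM with acetate, below its TGF-β1 libraries (log2 -0.69 ± 0.04, adjusted p 3.31e-10). SNHG1 stood at 77.7, 79.4, 78.6 and 75.0 CPM (-0.85 ± 0.04, adjusted p 1.44e-11) and SNHG15 at 14.3, 14.2, 16.2 and 14.2 CPM (-0.67). SNHG8 was at 18.2, 17.5, 17.8 and 16.6 CPM (-1.03). All 4 hosts were also below control after TGF-β1 alone.

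Several hosts with a fall of less than 0.2 or none after TGF-β1 alone were lower with acetate. SNHG12 stood at 20.9, 19.8, 21.2 and 18.2 CPM (log2 -0.87 ± 0.06, adjusted p 1.77e-09). SNHG19, host of SNORD60, fell from 19.5, 23.1, 20.6 and 21.4 CPM to 10.1, 10.2, 10.9 and 9.20 CPM (-1.05). SNHG25 fell from 13.9, 18, 18.7 and 16.9 CPM to 9.17, 8.16, 8.74 and 6.59 CPM (-1.04). None of these groups overlapped. SNHG5 fell from 103, 110, 117 and 114 CPM to 53.0, 57.9, 59.8 and 54.9 CPM (-0.97). SNHG3 fell from 614, 706, 803 and 606 CPM to 381, 391, 402 and 251 CPM (-0.93). SNHG9 (-0.93), SNHG10 (-0.89) and SNHG6 (-0.56) fell with groups apart. SNHG21 (-0.40) and SNHG16 (-0.26) fell less, as did SNHG17 (-0.37), which had already fallen with TGF-β1.

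The exceptions were few. SNHG22 rose, from 6.67, 6.62, 6.96 and 6.79 CPM to 8.08, 8.37, 9.26 and 7.44 CPM (log2 0.30). SNHG4, SNHG11 and SNHG14 did not pass, with 0.07 or less in either direction, though SNHG11 and SNHG14 were called higher with library totals. SNHG23 was 49.2 ± 3.66 CPM with acetate (-0.17, adjusted p 0.0154), a call lost without S22 and with library totals. For SNHG20 (-0.44) and SNHG7 (-0.28) the groups overlapped: without S17 and S25 together SNHG20 came to -0.06 (adjusted p 0.576) and SNHG7 to -0.11 (adjusted p 0.0988). The SNHG20 call was also lost without S17, S23 or S25 alone, by DESeq2 (adjusted p 0.124) and limma-voom (0.0611), with a filter at 1 CPM (0.0552) and with library totals (0.132). The SNHG7 call was lost with library totals (0.124). Without both libraries, a choice made after seeing the data, 16 of 22 snoRNA hosts were called lower.

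MIR17HG fell most among microRNA hosts, to 7.47, 6.76, 7.23 and 7.67 CPM (log2 -1.30 ± 0.06, adjusted p 4.25e-11). MIR497HG fell to 17.8, 16.4, 18 and 16.1 CPM (-1.24 ± 0.06, adjusted p 3.53e-11), and MIR31HG to 14.8, 15.6, 16.9 and 14.2 CPM (-1.09 ± 0.06, adjusted p 4.90e-10). MIR181A2HG fell to 1.17, 1.20, 1.18 and 1.08 CPM (-1.13). MIR2117HG (-1.07), MIR4500HG (-0.98) and MIR762HG (-0.72) also fell. MIR137HG (-0.42), MIR22HG (-0.38) and MIR193BHG (-0.36) fell by less.

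MIR100HG rose, to 39.9, 39.0, 37.4 and 40.3 CPM, all above the control and TGF-β1 libraries (log2 0.89 ± 0.05, adjusted p 2.98e-10). MIR99AHG rose to 1.33, 1.17, 1.32 and 1.63 CPM (0.95), a level still below control. MIR4697HG rose from 0.392, 0.428, 0.355 and 0.536 CPM to 1.22, 0.910, 0.709 and 1.14 CPM (1.23), and MIR600HG from 3.68, 2.97, 2.76 and 3.73 CPM to 3.94, 4.71, 4.80 and 4.24 CPM (0.44). MIR222HG, host of miR-221 and miR-222, was the other rise (0.42). The 9 hosts that did not pass lay between -0.40 (MIR663AHG) and 0.31 (MIR133A1HG). MIR663AHG spread widely with acetate, over 15.6, 10.3, 6.19 and 5.22 CPM, and was called lower without S22 (-0.76, adjusted p 0.00205). Calls were also gained by MIR181A1HG without S15 (0.45), by MIR503HG without S15 or S18 (-0.26 and -0.24) and by MIRLET7DHG without S23 (-0.23).

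Set directly against control in a fit of all 12 libraries, TGF-β1 with acetate left 20 of 22 snoRNA hosts lower and 2 higher (SNHG14 and SNHG23), against 34.4% of all 22742 genes lower and 36.1% higher. In 21 of 22 the groups did not overlap, against 64.0% of all genes. Among microRNA hosts 12 of 24 were higher and 6 lower, with 16 of 24 apart. Those higher include MIR2117HG and MIR381HG, which passed the filter on low counts only through treated libraries. Medians were -0.86, 0.51 and 0.02 for snoRNA hosts, microRNA hosts and all genes. SNHG8 (-1.97), SNHG15 (-1.91), SNHG1 (-1.89) and GAS5 (-1.67) stood 3.2-fold to 3.9-fold below control.

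The combined group left microRNA hosts on different sides of control. MIR193BHG (1.36), MIR600HG (1.21), MIR4697HG (1.5), MIR100HG (0.77) and MIR22HG (0.68) were above it. MIR17HG (-0.83), MIR497HG (-0.63), MIR99AHG (-1.54) and MIR4500HG (-1.0) were below it. The smaller falls of MIR762HG and MIR503HG (-0.26 and -0.24) were lost without S4 or S23 and without S3 or S23. MIR31HG did not pass (-0.14, adjusted p 0.0619), with 15.4 ± 1.14 CPM against 17 ± 1.44 CPM in control, though it did pass without S1 or S24 and by DESeq2. MIR133A1HG (0.84, adjusted p 0.0536) passed without S22 or S24.

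**Figure D3:**
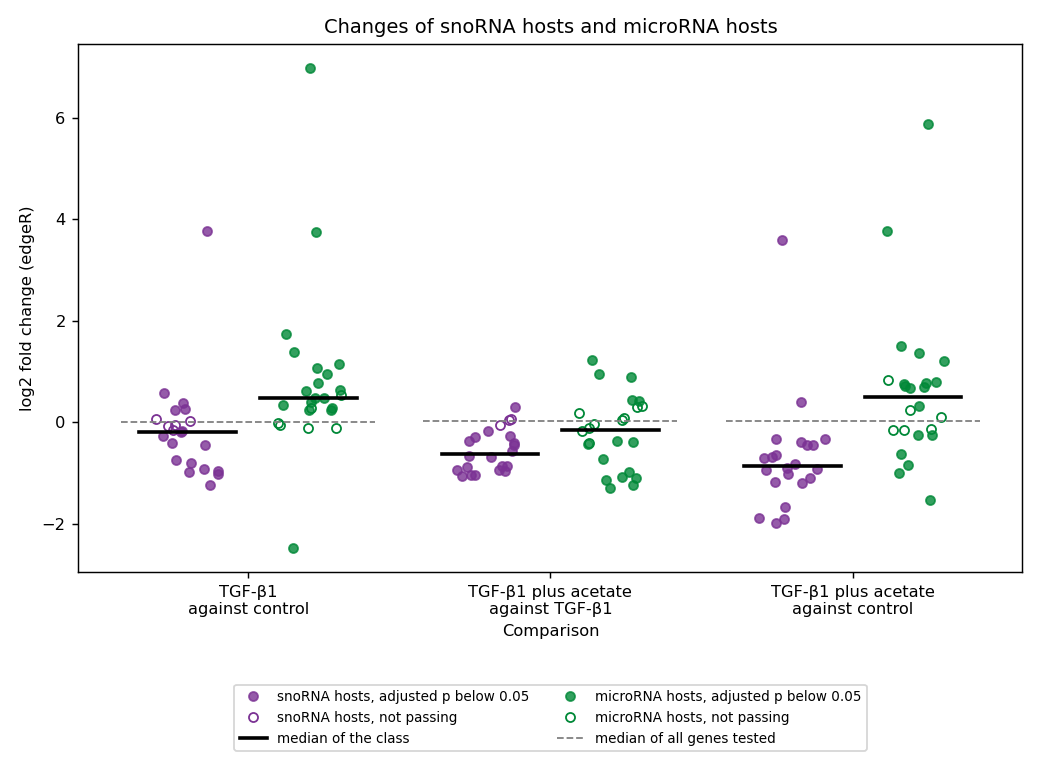
log2 fold changes of the tested snoRNA hosts and microRNA hosts in 3 comparisons; filled points passed the test, open points did not, black bars are class medians and dashed lines the median of all genes tested. The snoRNA host medians are -0.18, -0.62 and -0.86, the microRNA host medians 0.48, -0.15 and 0.51.

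Further readouts outside the selection rule were available for these genes, the small RNA rows inside them and the sequence at their start. For the first, 45 snoRNA or scaRNA rows lie on the same strand inside 19 of the snoRNA hosts, leaving out the arrays of SNHG14 and SNHG23. GAS5 has no such row and is not part of this readout. Some annotate the same snoRNA again, so overlapping rows were counted once, which left 40 loci. With TGF-β1, 15 of the 40 were higher and 2 lower (18 and 2 of the 45 rows), with a median log2 fold change of 0.12, although 12 of all 22 hosts fell. Over every tested snoRNA or scaRNA row 115 of 312 were higher and 10 lower, with a median of 0.26. This wider set keeps overlapping rows, the rows inside the hosts and the arrays of SNHG14 and SNHG23. With the arrays kept, 44 of 82 tested rows inside snoRNA hosts were higher and 2 lower. With acetate against TGF-β1, 31 of the 40 loci were lower and none higher (median -0.78), against 156 lower and 11 higher of all 318 such rows (median -0.45).

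SNHG1 has 7 snoRNA rows with separate coordinates. While the host fell by 1.02 with TGF-β1, they ranged from 0.03 (SNORD28) to 0.33 (SNORD27), and SNORD27 alone passed the test. As log2 of summed snoRNA counts over host counts within each library, which needs no scaling, the value was -2.81, -2.84, -2.76 and -2.81 in the control libraries. It was -1.60, -1.60, -1.70 and -1.62 with TGF-β1 and -1.57, -1.58, -1.53 and -1.59 with acetate. The ratio stood 1.18 higher on the log2 scale with TGF-β1 and moved by 0.06 with acetate, where host and snoRNA rows both fell.

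SNORA24 inside SNHG8 rose by 0.55 with TGF-β1 while its host fell by 0.92, and fell by 1.25 with acetate while its host fell by 1.03. SNORA9 inside SNHG15 stood at 2.38 ± 0.12 and 2.32 ± 0.32 CPM in control and TGF-β1, against the host's fall of 1.23. In SNHG12, whose own row did not pass, SNORA61 rose from 5.32 ± 0.24 to 8.17 ± 0.19 CPM (log2 0.62).

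The ratio was computed for 18 hosts, after its pattern had been seen, and tested by a two-sided exact permutation test over libraries. With TGF-β1 it was higher without overlap in 8 of 18 hosts (SNHG1, SNHG5, SNHG7, SNHG8, SNHG12, SNHG15, SNHG17 and SNHG22) and lower in 0. With acetate against TGF-β1 it was higher without overlap in 3 and lower in 5. With acetate and TGF-β1 against control it was higher without overlap in 11 and lower in 1. In each of these the exact p was 0.0286, the smallest that 4 against 4 libraries allow, and after adjustment over the 54 tests run it was 0.0551. No ratio therefore passed an adjusted threshold of 0.05. At that smallest p a host passes the adjustment only if enough other tests reach it too. The test therefore cannot decide for single hosts. For levels of single genes, 61.4% of all genes tested had groups apart with TGF-β1 and 57.3% with acetate against TGF-β1. No such share was computed for ratios.

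Small RNA reads can also make up part of a host's own count, since some snoRNAs lie inside annotated host exons and 2 near-identical annotations of the same snoRNA (SNORA16A, 2.88 and 2.84 CPM in control) held almost the same counts. In SNHG3, SNORA73A in the exon amounted to 88.9 ± 1.51%, 89.1 ± 1.34% and 86.5 ± 3.50% of the host's count in the control, TGF-β1 and acetate groups. In SNHG20 SCARNA16 amounted to 57.6 ± 4.99%, 69.1 ± 6.98% and 51.7 ± 5.22%. For SNHG25 the share was 45.6 ± 4.65% in control. SNHG22's scaRNA rows came to 102 ± 3.18% of its count with TGF-β1, so the reads of such a row are not always a subset of the host's.

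Those counts were subtracted for every host with such a row except SNHG22. GAS5 has no such row, so its counts stayed as they were. Then 4 snoRNA hosts were called higher and 13 lower with TGF-β1, and 2 higher and 16 lower with acetate. SNHG3 then rose by 0.24 with TGF-β1 and fell by 0.66 with acetate. SNHG12 then fell with TGF-β1 (-0.41, adjusted p 2.65e-05), and SNHG1 came to -1.32. SNHG20 reversed with acetate, to 0.27 (adjusted p 0.0400), and SNHG7 came to 0.03 (adjusted p 0.664). SNHG25 no longer rose with TGF-β1 (0.05, adjusted p 0.634).

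**Figure D4:**
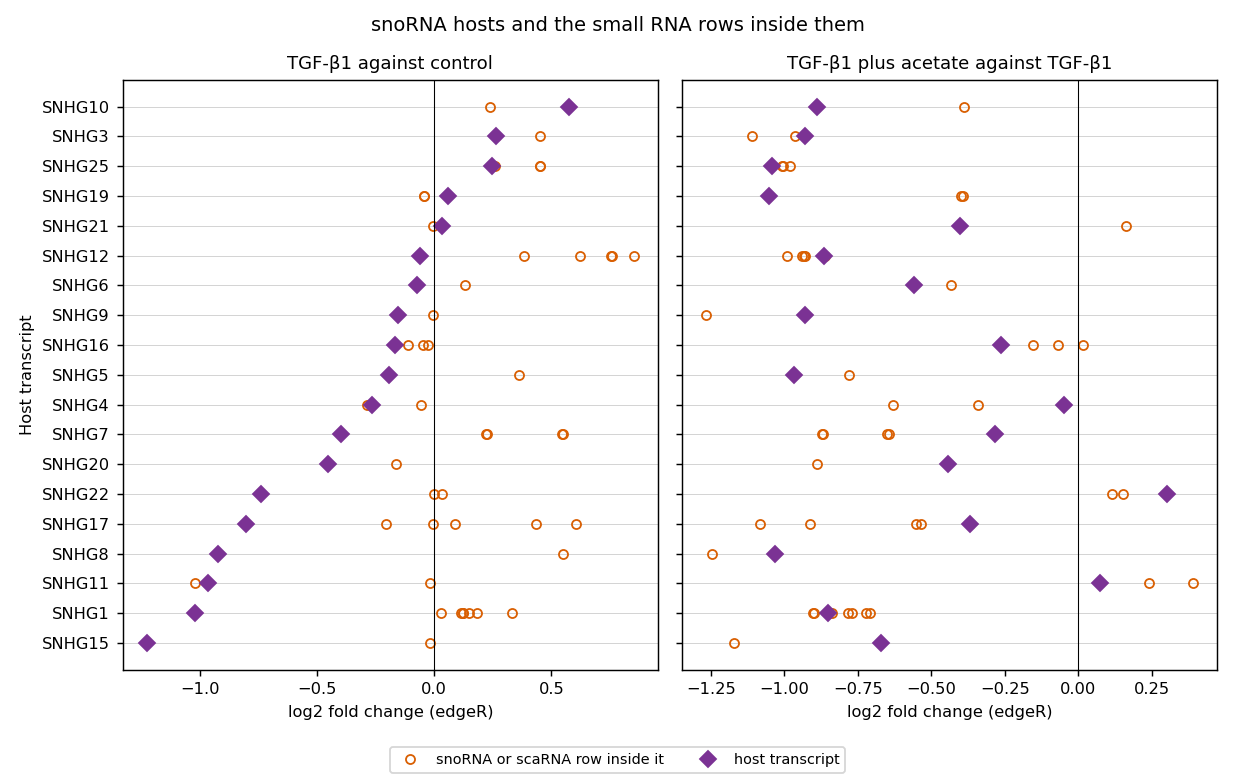
log2 fold changes of 19 snoRNA hosts (diamonds) and of the snoRNA or scaRNA rows inside them (open circles), ordered by the host's change with TGF-β1, for TGF-β1 against control and for acetate with TGF-β1 against TGF-β1. On the left the circles of SNHG1, SNHG8, SNHG15 and SNHG17 lie far to the right of their diamonds, and on the right those of SNHG1 lie around theirs.

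A start tract was searched at the 5′ ends of GENCODE 29 transcripts as a C followed by at least 4 bases that are each C or T, on the transcript strand. At least 1 transcript began so in 12 of 22 snoRNA hosts (54.5%) and 5 of 25 microRNA hosts (20%), against 77.9% of ribosomal protein genes and 6.58% of all genes. By single transcripts the shares were 11.7%, 4.3%, 20.2% and 2.41%. At the starts in the RefSeq promoter table it stood in 4 of 17 snoRNA hosts (23.5%), 1 of 22 microRNA hosts (4.5%), 69.6% of ribosomal protein genes and 5.14% of all genes. Genes with more annotated transcripts have more chances to match, and annotated ends need not be the ends used in A549.

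The starts below, read from GENCODE 29 transcripts on hg38 with the tract in capitals, are 1 matching transcript for each of 11 of these 12 hosts, to let the tracts be compared. SNHG6, the other match, is not shown. GAS5, SNHG16 and SNHG19 share their first 6 bases. Several of the transcripts, those of GAS5, SNHG1, SNHG3, SNHG11 and SNHG12 among them, start inside the gene, downstream of its annotated 5′ end.
GAS5, chr1:173867960-173867989, minus strand: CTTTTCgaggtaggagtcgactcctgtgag
SNHG16, chr17:76557769-76557798, plus strand: CTTTTCgaggtcggccgcgtggctggaaga
SNHG19, chr16:2155329-2155358, minus strand: CTTTTCggggtcgagtccgagggggaagag
SNHG5, chr6:85678704-85678733, minus strand: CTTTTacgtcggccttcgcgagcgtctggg
SNHG8, chr4:118278758-118278787, plus strand: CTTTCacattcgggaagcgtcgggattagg
SNHG25, chr17:64145970-64145999, plus strand: CTTTCagcgcctgcaggttccgggaggtca
SNHG12, chr1:28581844-28581873, minus strand: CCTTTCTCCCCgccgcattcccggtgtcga
SNHG3, chr1:28506043-28506072, plus strand: CCTTTTTggagacagattcgcagtggtcgc
SNHG4, chr5:139274102-139274131, plus strand: CCTTTCCCCTCCggcctctgccggtgctgc
SNHG11, chr20:38446724-38446753, plus strand: CCCCTCagcctcctccgcgcggttacccct
SNHG1, chr11:62855450-62855479, minus strand: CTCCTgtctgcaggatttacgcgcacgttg
With acetate against TGF-β1 the 12 hosts with a tract had a median log2 fold change of -0.86 (10 lower, 0 higher) and the 10 without one -0.39 (8 lower, 1 higher). With TGF-β1 against control the medians were -0.18 and -0.28. These are descriptions of small sets, with no test.

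Against the same shares of all genes called, 34.1% higher and 32.8% lower with TGF-β1 and 33.3% and 30.4% with acetate, related gene lists gave the following counts. Ribosomal protein genes, which carry the same kind of tract, were counted beside them. With TGF-β1 71 of 83 rose and 3 fell (median 0.26), among them RPL28 (0.98). With acetate 81 of 84 fell and none rose (median -0.54), among them RPS12 (-0.92).

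The noncoding snoRNA hosts outside the naming rule gave 4 lower and 2 higher of 6 with TGF-β1. The 2 higher were DANCR (log2 0.73) and MEG8 (3.35). MEG8 overlaps 14.1% of the exon bases of the SNHG23 row, so it is not independent of that member. ZFAS1, host of the SNORD12 family, fell from 209 ± 22.6 to 71.9 ± 3.04 CPM (log2 -1.54) and then to 46.7 ± 2.91 CPM with acetate (-0.61). C6orf48 fell from 109 ± 9.46 to 39.0 ± 2.03 CPM (-1.48). With acetate 5 of the 6 fell, DANCR among them (-1.06).

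Protein-coding snoRNA hosts differed in direction: 11 of 16 rose with TGF-β1 and 3 fell, and with acetate all 16 fell. HSPA8, a constitutive heat shock chaperone, rose from 510 ± 19.3 to 2212 ± 170 CPM (log2 2.12), and HSPA9, its mitochondrial relative, fell from 1021 ± 26.5 to 508 ± 8.78 CPM (-1.0). Coding microRNA hosts were mixed, with 8 of 21 higher and 9 lower with TGF-β1 and 8 higher and 7 lower with acetate. MCM7, a replicative helicase subunit that hosts a relative of the miR-17 cluster, fell with acetate (-0.84), as did SMC4 (-0.81).

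The machinery around these RNAs was read from gene lists, whose counts stand against 66.9% of all genes called with TGF-β1 and 63.7% with acetate. Those shares take both directions together. By direction, 34.1% of all genes were higher and 32.8% lower with TGF-β1, and 33.3% and 30.4% with acetate. With acetate most genes of each list below were lower, a larger part than that share. No list was tested as a set. Of 19 snoRNP proteins and assembly factors, 6 rose and 9 fell with TGF-β1 (median -0.05), and 14 fell with none rising with acetate (median -0.32). NOP56, a core box C/D protein, fell by 0.66 and DKC1, the pseudouridine synthase of box H/ACA particles, by 0.70 with acetate. Of 18 nonsense-mediated decay factors, 3 rose and 10 fell with TGF-β1 (median -0.25), EIF4A3 rising by 0.54 and SMG5 falling by 0.49, and 14 fell with acetate (median -0.22), CASC3 by 0.76. Of 18 microRNA processing and Argonaute genes, 10 rose and 2 fell with TGF-β1 (median 0.14), AGO4 by 0.77 upward, and 2 rose and 12 fell with acetate (median -0.30), RAN by 0.70.

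SNHG23 and MIR381HG lie in the same imprinted cluster on chromosome 14, between MEG3 and MEG9, whose long noncoding RNAs, snoRNAs and microRNAs come from the maternal chromosome. The SNHG23 row is called MEG8 in GENCODE 29, and the table has a separate MEG8 row that overlaps 14.1% of its exon bases. All 6 genes examined there, a set added after seeing the data, rose with TGF-β1, against 34.1% of all genes tested. MIR381HG passed the filter on low counts only through its TGF-β1 libraries, so only a rise could be called. DLK1, another gene of the cluster that was looked for, had no row. MEG3 went from 14.2 ± 2.02 to 88.5 ± 7.69 CPM (log2 2.65), and RTL1, a coding gene on the opposite strand, from 0.401 ± 0.05 to 6.26 ± 0.77 CPM (3.95). RTL1 lies inside the span of MEG8, and without the counter's strand setting their reads there cannot be told apart.

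With acetate against TGF-β1, MEG3 was higher at 151 ± 23.5 CPM (0.78) and SNHG23 lower by the call described above. Neither MEG8, RTL1, MIR381HG nor MEG9 passed, with log2 fold changes from -0.03 to 0.11. Several of these gene spans overlap, so the rows are not independent.

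**Figure D5:**
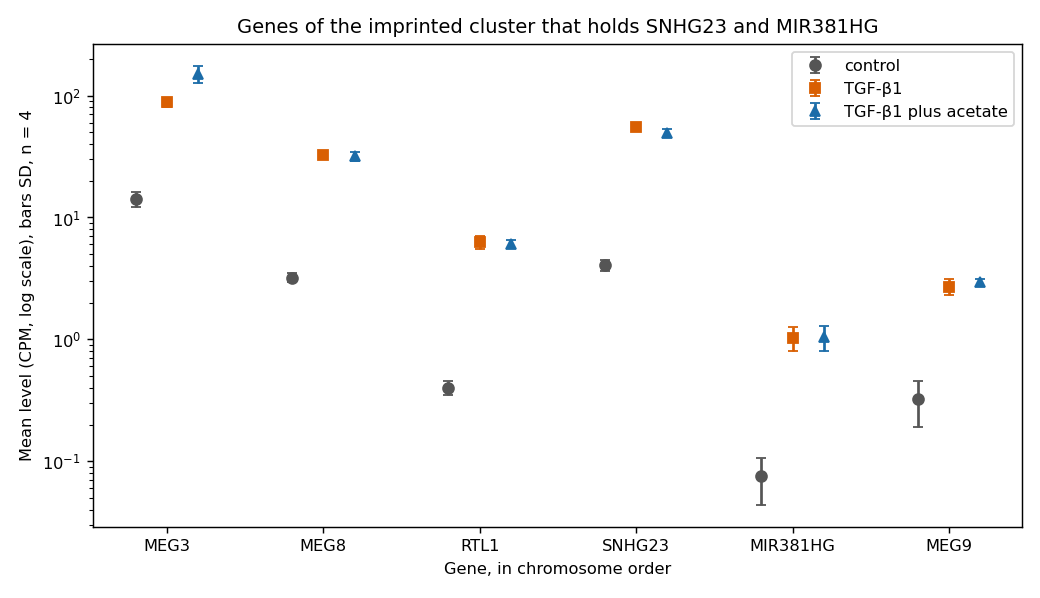
Mean levels of 6 genes of the imprinted chromosome 14 cluster in CPM on a log axis, with SD bars over 4 libraries in each of the 3 groups. Each gene stands higher with TGF-β1 than in control, and MEG3 is the 1 gene that the test called higher with acetate than with TGF-β1.

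Reads shared with neighbouring genes limit some rows, because the counter's strand setting is not given in the sources used here. Annotated exons overlap those of another gene that is not a small RNA in 12 of 22 snoRNA hosts and 7 of 25 microRNA hosts. MIR31HG shares 40.7% of its exon bases with IFNWP19, an interferon pseudogene on the opposite strand, at 13.5 ± 1.23, 22.8 ± 0.41 and 10.7 ± 0.89 CPM in the 3 groups (0.76 with TGF-β1 and -1.08 with acetate, beside 0.96 and -1.09 for MIR31HG). MIRLET7DHG shares 85.7% with a long noncoding RNA on the opposite strand that did not pass in either comparison (0.19 and -0.13). MIR497HG shares 38.2% of its exon bases with C17orf49 on the opposite strand, which changed by 0.51 with TGF-β1 and -0.83 with acetate. MIR762HG shares 27.5% with BCL7C (0.52 and -0.78), and SNHG7 25.2% with FAM69B, which went the other way with acetate (-0.70 and 1.64). Among the rest, opposite-strand overlap reached 34.1% for SNHG21 (FSD2), 29.3% for SNHG6 (MCMDC2) and 20.1% for SNHG10 (GLRX5).

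WDR81, opposite MIR22HG with no annotated exon overlap, stood at 32.8 ± 1.48, 67.2 ± 3.41 and 49.5 ± 2.51 CPM, close to MIR22HG at 30.7 ± 2.57, 64.6 ± 2.79 and 49.3 ± 2.63 CPM. GAS5-AS1, opposite GAS5 with 42 bases of annotated exon overlap (1.2% of GAS5's exon bases), fell by 1.37 and 0.72. Without strand, reads on shared bases cannot be told apart, and whether reads outside annotated exons were counted is not known. The part of shared reads in these values was not tested. MYO5B, opposite SNHG22, fell by 1.79 with TGF-β1 and rose by 1.18 with acetate, beside -0.74 and 0.30 for SNHG22. Their annotated exons share 229 bases (8.8% of SNHG22's exon bases).

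The few microRNA hairpin rows that passed the filter were thin. MIR31 itself rose from 0.114 ± 0.09 to 0.618 ± 0.15 CPM (log2 2.34) and fell to 0.303 ± 0.17 CPM with acetate (-1.0), in the direction of MIR31HG. MIRLET7A2, inside MIR100HG, rose with acetate from 0.301 ± 0.06 to 0.672 ± 0.25 CPM (1.16). MIR365A rose with TGF-β1 (1.27) and again with acetate (0.74), where its host MIR193BHG fell. With TGF-β1 against control, MIR31 and MIR365A passed the filter on low counts only through their TGF-β1 libraries, so only a rise could be called. The hairpin rows count reads of the precursor region and not the mature microRNA.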

How the data were processed

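The deposited files are 2 tables of raw counts per gene from A549 cells, which the authors aligned to hg38 with HISAT2 after bcl2fastq, per the submitters' processing notes, which also name limma. The sources used here do not name the counter, its strand setting or the annotation release. A further 32 columns of values per library were not used. Counts were fitted in R 4.3.3 with edgeR 4.0.16 (filterByExpr with minimum count 10 and minimum total 15, TMM, glmQLFit, glmQLFTest, two-sided, Benjamini-Hochberg over all genes tested, threshold 0.05). Groups held by the same table were compared within it. Acetate against control used a joint fit on 23771 shared genes, which also gave the CPM levels. The test was tried on simulated data. IDs were matched to GENCODE 29 for 99.1% of rows, and for 47 of 47 members.

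Full values were given for 8 hosts set by name and for the 4 largest called changes per class, direction and comparison among members with a mean of at least 0.5 CPM and groups apart; per list, up to 3 genes with the smallest p could be named. The members and lists were chosen with earlier results of these data known. Subtracting small RNA counts, removing small RNA rows, leaving out S17 with S25, the snoRNA-over-host ratio and counting overlapping snoRNA rows once were chosen after seeing the data. The other alternatives were RLE scaling, library totals, DESeq2 1.42.0, limma-voom (limma 3.58.1), other filters, all 12 libraries in 1 fit and leaving out each library. Chi-square per degree of freedom between libraries of a group was 3.95 to 17.3, so none was a duplicate.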

Additional observations from a re-analysis of the deposited data

Results flagged for a closer look

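In 140 groups of 4 libraries, 11 had 1 library farther from the other 3 than Dixon's 95% limit allows; chance flags about 1 in 20. The control group had MIR137HG at 3.87 CPM in S4 (the others 4.07 to 4.11), SNHG9 at 8.54 CPM in S4, MIR210HG at 1.71 CPM in S3 and MIR4697HG at 0.204 CPM in S3. In the TGF-β1 group library S15 stood apart for MIR181A1HG at 4.04 CPM (the others 2.56 to 2.73), MIR762HG at 14 CPM, SNHG11 at 7.16 CPM and SNHG4 at 25.9 CPM. SNHG20 was at 21.1 CPM in S17 against 10.8 to 12.2 CPM in the other 3. In the acetate group SNHG15 was at 16.2 CPM in S24 and SNHG3 at 251 CPM in S25 against 381 to 402 CPM. S17 had the highest and S25 the lowest share of counts in snoRNA rows of its group; without both, SNHG3 differed by -0.70 on the log2 scale with acetate against TGF-β1 (adjusted p 1.16e-07 by edgeR).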

How the results depend on the processing

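No paired analysis was possible because the count columns carry no replicate number. Under library totals, 3 snoRNA hosts were called higher with TGF-β1 (5 as reported), 2 microRNA hosts lower (1 as reported) and 3 snoRNA hosts higher with acetate against TGF-β1 (1 as reported). Leaving out 1 library gave 3 to 5 snoRNA hosts higher (3 without S1) and 1 to 2 microRNA hosts lower (2 without S1, S3 or S15) with TGF-β1. With counts of small RNAs in host exons subtracted, 2 snoRNA hosts were higher with acetate, the acetate against TGF-β1 values of SNHG7 and SNHG20 reversed to 0.03 (0.0317) and 0.27; the cause was not tested. The other counts stayed within 1.5 times, and 200 recomputed counts did so in all. Of 2380 recomputed values of single members, 50 lost a call, 34 gained one and 2 reversed, in 19 members for the first 2 kinds. At these depths 3 counts equal up to 0.0856 CPM, so levels near or below that in single libraries rest on a few counts.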
